A study of Mus musculus with 84 samples.

Results

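Genes that store triglyceride in fat cells or break it down again, 10 in all, were followed through epididymal white adipose tissue (eWAT) of obese mice: Lipe, Mgll, Abhd5, Aqp7, Gpd1, Pck1, Dgat1, Dgat2, Lpl and Slc2a4. They were picked by name as the core enzymes, transporters and cofactors of this cycle, with earlier results of these data known. Their Ensembl identifiers were looked up among the 48794 genes listed in the deposited tables. All 10 were found, and all 10 passed the filter on low values in eWAT (18536 genes tested) and in liver (15964 genes tested), so none was dropped.

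The libraries came from male C57BL/6J mice made obese on a diet with 60% of energy from fat, aged 22 weeks at the start of treatment, and injected subcutaneously once daily for 30 days. All 7 groups shared strain, sex, diet and injection schedule. They received vehicle, or BI456906 at 1 of 4 doses (3, 10, 20 and 30 nmol/kg), or semaglutide at 1 of 2 doses (20 and 100 nmol/kg). BI456906 is a long-acting peptide agonist of the glucagon receptor and the glucagon-like peptide-1 (GLP-1) receptor, and semaglutide is a long-acting agonist of the GLP-1 receptor alone. Each group had 6 eWAT and 6 liver libraries, 84 in all. The labels do not state that each library is a separate mouse, so the p-values measure the spread between these libraries. Diet-induced obesity is a model of acquired obesity in an inbred strain, and lean mice were not among these groups. All treated groups of a tissue share its 6 vehicle libraries.

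A fat cell makes triglyceride by joining fatty acids to a glycerol-3-phosphate backbone. Lipoprotein lipase on the capillary wall supplies many of the fatty acids from circulating lipoproteins, and the backbone comes from glucose taken up through the insulin-regulated transporter GLUT4 or, in the fasted state, from pyruvate through glyceroneogenesis. Lipolysis takes the molecule apart in 3 steps, each by its own lipase, and is switched on by catecholamines through cAMP and held back by insulin.

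The eWAT libraries held 37573004 to 53996914 reads on genes and the liver libraries 21676902 to 53869104. The tissue label was checked against marker genes: Adipoq, the fat-cell hormone adiponectin, was at 1320 to 3169 TPM (a level scaled to transcript length and library total) in vehicle eWAT and 0.08 to 0.53 TPM in vehicle liver, and Crisp1, an epididymis gene, was at 0 to 0.03 TPM in vehicle eWAT. Marker levels in the eWAT libraries touch several results. The mean log2(TPM + 1) over 8 adipocyte markers ranged from 9.62 to 10.7 within the vehicle group, with vehicle replicates 5 and 6 highest, and from 8.88 to 10.5 within the BI456906 10 nmol/kg group. No treated group passed the threshold against vehicle in it (exact permutation tests, 2-sided, Benjamini-Hochberg adjusted p over 6 groups from 0.474 to 0.812). Its difference from vehicle was -0.503 at BI456906 10 nmol/kg, -0.4996 at semaglutide 100 nmol/kg and 0.0554 at BI456906 30 nmol/kg. Values given below relative to this mean carry such differences too. The 8 markers were Adipoq, Plin1, Cidec, Fabp4, Lep, Retn, Cfd and Pparg. The paper reports lower plasma leptin, the product of Lep, under both compounds, so a relative value can also reflect a change of the markers. The summed TPM of 7 liver markers such as albumin was 38.2 to 8017 in vehicle eWAT (median 2329) and lower, with medians from 128 to 422, in the treated groups (adjusted p = 0.0390 for BI456906 20 and 30 nmol/kg and both semaglutide doses, 0.114 and 0.182 for BI456906 3 and 10 nmol/kg). The fibroblast and progenitor list had a higher mean than vehicle in every treated group. It passed for BI456906 3, 20 and 30 nmol/kg (adjusted p = 0.0390 each). It did not pass for BI456906 10 nmol/kg (adjusted p = 0.102) or semaglutide 20 and 100 nmol/kg (adjusted p = 0.05195 each). The macrophage list was not past the threshold in any group (adjusted p from 0.162 to 0.608). The brown or beige adipocyte list was lower than in vehicle at semaglutide 100 nmol/kg (adjusted p = 0.0260). The part of these shifts in the results below was not tested except where stated.

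In vehicle eWAT the 10 genes spanned a wide range of levels on the TPM scale, which is per transcript length. Lpl was highest at 3060 ± 384 TPM (SD, n = 6), followed by Dgat2 (822 ± 239), Pck1 (792 ± 341), Lipe (746 ± 243) and Mgll (604 ± 174). The ranges of these last 4 genes overlapped, so their order is not settled by 6 libraries. Gpd1 came next at 395 ± 102 TPM, and Dgat1 (129 ± 35.9), Aqp7 (106 ± 38.5), Abhd5 (82.3 ± 16.6) and Slc2a4 (64.03 ± 20.1) were lower. In vehicle liver the mean of Lpl was 7.81 TPM, that of Lipe 13.5, that of Aqp7 0.817 and that of Slc2a4 0.340, whereas Pck1 was at 1056 TPM and Dgat2 at 441 TPM. The means were taken from 2 tables normalized separately.

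**Figure D1:**
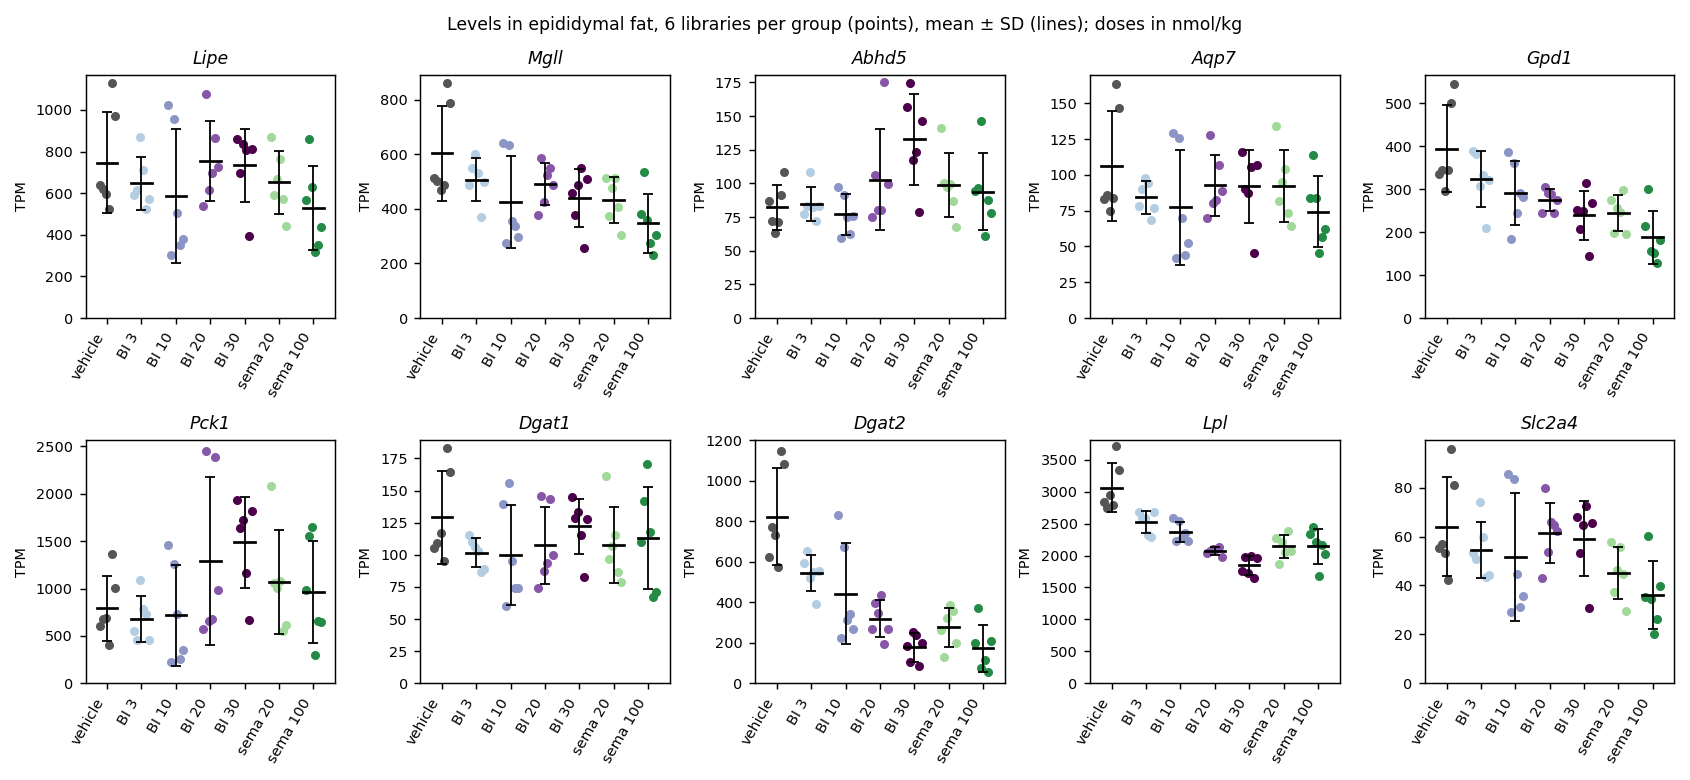
TPM of the 10 genes in each of the 42 eWAT libraries (points), by treatment group on the horizontal axis (BI, BI456906; sema, semaglutide; doses in nmol/kg); horizontal lines are group means and bars are SD, n = 6. Lpl and Dgat2 fell with BI456906 dose, while most BI456906 30 nmol/kg libraries lay above the highest vehicle library for Pck1 (4 of 6) and Abhd5 (5 of 6).

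Changes were tested with limma/voom over all genes, and a gene counted as changed when its false discovery rate (FDR), taken across the whole table of tested genes, was at most 0.05. Of the 10 genes, none passed at BI456906 3 nmol/kg, where 0.00539% of all tested genes did, and 1 passed at 10 nmol/kg, a lower one (all genes: 0.513%, of which 0.464% lower). At 20 nmol/kg 2 passed, both lower (all genes: 4.27%, with 2.91% lower), and at 30 nmol/kg 4 passed, 3 lower and 1 higher (all genes: 23.9%, with 13% lower and 10.9% higher). Semaglutide lowered 3 of the 10 at 20 nmol/kg (all genes: 6.33%, with 4.54% lower) and 5 at 100 nmol/kg (all genes: 14.9%, with 9.42% lower). The median log2 fold change of the 10 genes was -0.15 at BI456906 30 nmol/kg and -0.50 at semaglutide 100 nmol/kg, beside -0.03 and 0.01 over all genes tested. At 3 nmol/kg, 1 of the 10 genes had an unadjusted p of at most 0.05, edgeR's quasi-likelihood test called 0 (all genes: 0%), and DESeq2 called 1 (all genes: 0.734%). Under the study's stricter rule, which also asks for a log2 fold change of at least 1 in size, Dgat2 alone was called at BI456906 20 and 30 nmol/kg and semaglutide 20 nmol/kg (all genes: 1.49%, 6.34% and 2.24%), and Dgat2 and Gpd1 at semaglutide 100 nmol/kg (all genes: 4.13%). Leaving out the 11 eWAT libraries high in liver markers left 1 vehicle library, which cannot show whether the calls hold. The Dgat2 log2 fold change was then -2.09 at BI456906 30 nmol/kg and -2.25 at semaglutide 100 nmol/kg. In these bulk libraries, fewer cells of a type and less RNA per cell cannot be told apart.

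**Figure D2:**
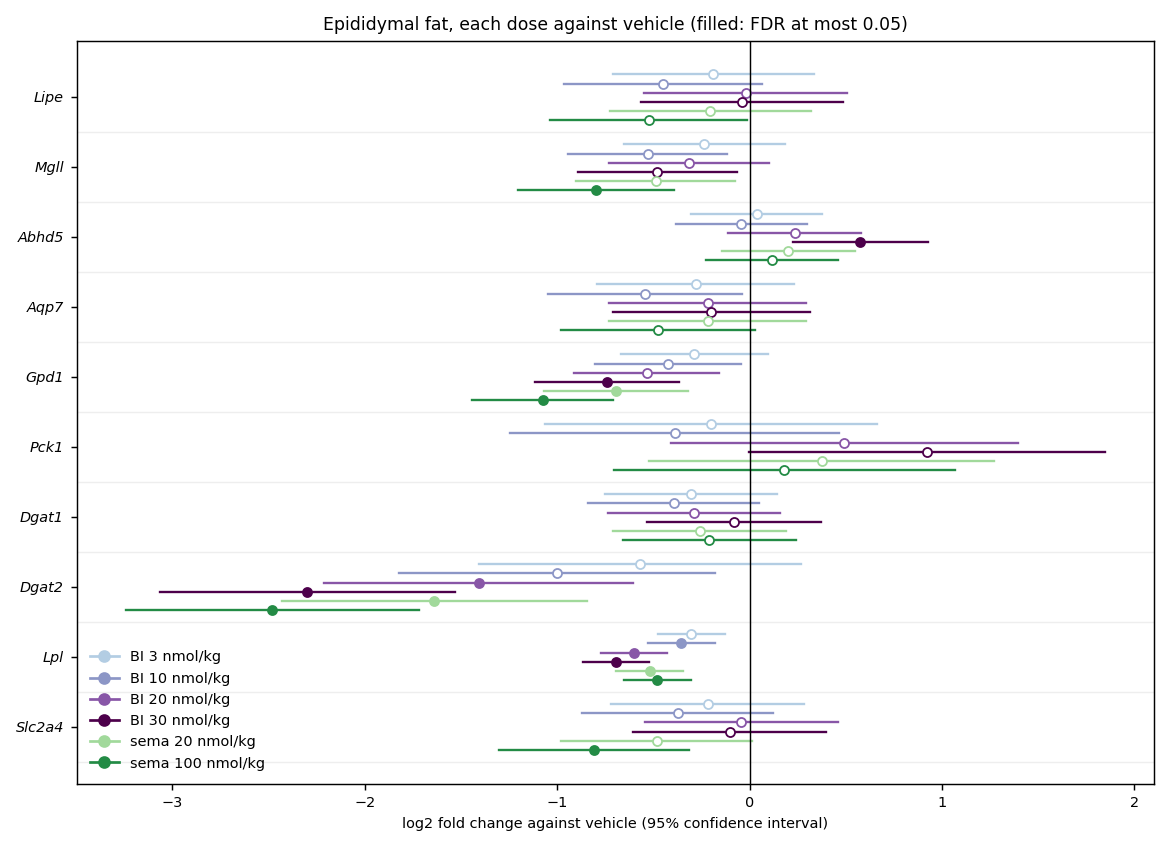
Log2 fold change against vehicle (points) with its 95% confidence interval (lines) for the 10 genes in eWAT, 1 colour per treatment group (BI, BI456906; sema, semaglutide); filled points have an FDR of at most 0.05. Dgat2 reached -2.30 and -2.48 at the highest doses of BI456906 and semaglutide, and Lpl was below 0 at each dose with narrow intervals.

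Of the lipases, Lipe encodes hormone-sensitive lipase, which cleaves diacylglycerol and is the enzyme that protein kinase A phosphorylates when lipolysis is switched on (chromosome 7, 25379527 to 25398710, minus strand; all gene positions are those of GENCODE M21 on GRCm38). In vehicle eWAT it ranged from 523 to 1127 TPM with a median of 631, and at BI456906 30 nmol/kg from 393 to 858 TPM with a median of 811. At semaglutide 100 nmol/kg it ranged from 316 to 858 TPM with a median of 503. The groups overlapped throughout. Lipe did not pass in any comparison with vehicle: its log2 fold change was -0.04 ± 0.26 (SE) at BI456906 30 nmol/kg (FDR 0.930, 95% confidence interval -0.57 to 0.49) and -0.53 ± 0.25 at semaglutide 100 nmol/kg (FDR 0.156).

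Mgll encodes monoacylglycerol lipase, which releases the last fatty acid and free glycerol (chromosome 6, 88724412 to 88828360, plus strand). Vehicle libraries ranged from 471 to 861 TPM (median 508) and semaglutide 100 nmol/kg libraries from 229 to 534 TPM (median 331). Of the 6 libraries at semaglutide 100 nmol/kg, 5 lay below the lowest vehicle library. Mgll fell by 0.80 ± 0.20 on the log2 scale there (FDR 0.00643), and in this fit it passed at no other dose. At BI456906 30 nmol/kg the log2 fold change was -0.48 ± 0.20 (FDR 0.0815) and at semaglutide 20 nmol/kg -0.49 ± 0.20 (FDR 0.147). Without the 2 vehicle libraries highest in adipocyte markers, replicates 5 and 6, that call was lost (log2 fold change -0.54, FDR 0.125). When set against the adipocyte marker mean of the same library, Mgll was lower at BI456906 30 and semaglutide 20 nmol/kg (log2 differences of -0.51 and -0.28, exact permutation tests, adjusted p = 0.0130 each over 60 tests of 10 genes and 6 groups) and did not pass at semaglutide 100 nmol/kg (-0.31, adjusted p = 0.0595).

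Abhd5 encodes CGI-58, the coactivator that binds the perilipin coat of the lipid droplet and, when released, turns on adipose triglyceride lipase (chromosome 9, 122351608 to 122381524, plus strand). It ranged from 63.4 to 109 TPM in vehicle (median 79.6) and from 78.5 to 174 TPM at BI456906 30 nmol/kg (median 135), where 5 of 6 libraries lay above the highest vehicle library. Replicate 29 was the exception, inside the vehicle range. Abhd5 was the 1 gene of the 10 that rose against vehicle at any dose in eWAT, by 0.57 ± 0.17 on the log2 scale at BI456906 30 nmol/kg (FDR 0.0150), and over the BI456906 doses it rose by 0.19 ± 0.05 per 10 nmol/kg (FDR 0.00501). At semaglutide 20 and 100 nmol/kg the log2 fold changes were 0.20 ± 0.17 and 0.12 ± 0.17 (FDR 0.531 and 0.681). The BI456906 30 nmol/kg call was lost without the 2 vehicle libraries highest in liver markers, replicates 2 and 3 (log2 fold change 0.45, FDR 0.108). Relative to the adipocyte marker mean of the same library, Abhd5 was higher at BI456906 30 nmol/kg (0.61 on the log2 scale, exact permutation test, p = 0.0260) and at semaglutide 20 and 100 nmol/kg (0.43 and 0.66, p = 0.0289 and 0.0433, each adjusted over 60 tests of 10 genes and 6 groups). The marker mean itself was at -0.4996 against vehicle at semaglutide 100 nmol/kg.

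Around these 3 genes, a list of 12 other genes of lipolysis and its regulators held 1 riser and 1 faller at BI456906 30 nmol/kg (all genes: 10.9% higher and 13% lower), with a median log2 fold change of -0.01. At semaglutide 100 nmol/kg it held 1 riser and 4 fallers (all genes: 5.48% higher and 9.42% lower), with a median of -0.47. Pnpla2, which encodes adipose triglyceride lipase itself, was at 984 to 1957 TPM in vehicle and 1281 to 2510 TPM at BI456906 30 nmol/kg (log2 fold change 0.63 ± 0.26, FDR 0.0732), and its slope over BI456906 dose was 0.23 ± 0.07 per 10 nmol/kg (FDR 0.0207). Its inhibitor G0s2 fell by 0.89 ± 0.24 at semaglutide 100 nmol/kg (FDR 0.0112) and was at -0.25 ± 0.25 at BI456906 30 nmol/kg (FDR 0.495). The droplet coat gene Plin1 fell by 0.92 ± 0.28 at semaglutide 100 nmol/kg (FDR 0.0224). It is also 1 of the 8 adipocyte markers. Pnpla3, a lipogenic acyl-hydrolase of the same family as Pnpla2, fell from a mean of 20.4 to 4.51 TPM at BI456906 30 nmol/kg (log2 fold change -2.25 ± 0.33, FDR 1.44e-05) and to 6.05 TPM at semaglutide 100 nmol/kg (FDR 0.000108). Cidea, a droplet fusion protein, rose by 0.97 ± 0.31 at BI456906 30 nmol/kg (FDR 0.0196), from a mean of 5.43 to 11.3 TPM, and was at 4.32 TPM at semaglutide 100 nmol/kg (FDR 0.411).

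Of the receptors and cAMP genes that control lipolysis, 12 of 13 listed were tested (Glp1r was too low), and 1 rose and 4 fell at BI456906 30 nmol/kg (all genes: 10.9% and 13%). Ptger3, an inhibitory prostaglandin E2 receptor, fell by 1.45 ± 0.25 (FDR 0.000106), from a mean of 29.9 to 11.1 TPM, and by 1.66 ± 0.26 at semaglutide 100 nmol/kg (FDR 4.93e-05). Adrb3, the main beta-adrenergic receptor of mouse fat, ranged from 126 to 440 TPM in vehicle and from 43.5 to 280 TPM at BI456906 30 nmol/kg, and did not pass (FDR 0.450). Pde3b, the phosphodiesterase through which insulin lowers cAMP, did not pass either (0.44 ± 0.30, FDR 0.303).

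Glycerol released by lipolysis leaves the fat cell through Aqp7, the aquaglyceroporin of adipocytes (chromosome 4, 41033074 to 41048139, minus strand). It ranged from 74.8 to 164 TPM in vehicle, from 45.2 to 116 TPM at BI456906 30 nmol/kg and from 45.1 to 114 TPM at semaglutide 100 nmol/kg. The groups overlapped at each dose. The log2 fold changes lay between -0.54 and -0.20 over the 6 treated groups and none passed (lowest FDR 0.196, at semaglutide 100 nmol/kg).

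Gpd1 encodes cytosolic glycerol-3-phosphate dehydrogenase, which makes the triglyceride backbone from a glycolytic intermediate (chromosome 15, 99717515 to 99725005, plus strand). Its vehicle libraries ranged from 297 to 547 TPM (median 345), BI456906 30 nmol/kg libraries from 145 to 314 TPM (median 251) and semaglutide 100 nmol/kg libraries from 129 to 300 TPM (median 169). At each of these doses 5 of 6 libraries lay below the lowest vehicle library and 1 inside the vehicle range. Gpd1 fell by 0.74 ± 0.18 on the log2 scale at BI456906 30 nmol/kg (FDR 0.00364), by 0.69 ± 0.18 at semaglutide 20 nmol/kg (FDR 0.0178) and by 1.08 ± 0.18 at semaglutide 100 nmol/kg (FDR 0.000112). Over BI456906 dose it fell by 0.21 ± 0.05 per 10 nmol/kg (FDR 0.00264). The call at semaglutide 20 nmol/kg was lost on leaving out vehicle replicate 5 or 6 or semaglutide replicate 32 or 36 (FDR up to 0.0745). The calls at BI456906 30 and semaglutide 20 nmol/kg were lost without both vehicle replicates 5 and 6, which were highest in adipocyte markers (FDR 0.0661 and 0.183). The log2 differences of Gpd1 from vehicle relative to the adipocyte marker mean were -0.78 at BI456906 30 nmol/kg and -0.48 and -0.58 at semaglutide 20 and 100 nmol/kg (exact permutation tests, adjusted p = 0.0130, 0.0433 and 0.0260).

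Pck1 encodes cytosolic phosphoenolpyruvate carboxykinase. In liver this enzyme serves gluconeogenesis, and in fat it serves glyceroneogenesis, the route from pyruvate to glycerol-3-phosphate by which fatty acids freed in lipolysis are esterified again (chromosome 2, 173153048 to 173159273, plus strand). Its vehicle libraries had the widest relative spread of the 10 genes (SD 43.03% of the mean). There it ranged from 407 to 1367 TPM (median 683), at BI456906 10 nmol/kg from 230 to 1463 TPM (median 545), and at BI456906 20 nmol/kg from 575 to 2456 TPM (median 832), with replicates 20 and 23 at 2456 and 2385 TPM and the other 4 at 985 TPM or below. At BI456906 30 nmol/kg it ranged from 670 to 1933 TPM with a median of 1681, and 4 of 6 libraries lay above the highest vehicle library. Semaglutide 20 nmol/kg libraries ranged from 549 to 2085 TPM (median 1036) and semaglutide 100 nmol/kg libraries from 304 to 1648 TPM (median 817). Every treated group overlapped vehicle.

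Against vehicle, Pck1 did not pass at any dose. Its log2 fold change was 0.92 ± 0.46 at BI456906 30 nmol/kg (FDR 0.140, 95% confidence interval -0.01 to 1.85) and 0.18 ± 0.44 at semaglutide 100 nmol/kg (FDR 0.816). The slope over BI456906 dose passed, at 0.37 ± 0.13 per 10 nmol/kg (FDR 0.0316). Of all tested genes 29.5% had a slope past the threshold, 13.8% higher and 15.8% lower, beside 5 of the 10 genes, 2 higher and 3 lower. That slope call was lost on leaving out vehicle replicate 4 or any of BI456906 30 nmol/kg replicates 25, 26, 27 and 30 (FDR up to 0.0643), or the 2 vehicle libraries highest in liver markers (FDR 0.0639). Liver carries Pck1 at a high level. With the liver marker sum as the scale and the mean vehicle liver as the source, the estimated liver contribution to Pck1 was up to 83.1 TPM in a vehicle eWAT library, and up to 12.2% of its value. Vehicle liver libraries themselves ranged from 632 to 1783 TPM, so this is an estimate and not a bound.

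Within the groups, Pck1 moved with the adipocyte markers. After each group mean was removed, log2(TPM + 1) of Pck1 and the adipocyte marker mean had a Pearson r of 0.93 and a Spearman rho of 0.91 over 42 libraries (permutation within groups, p = 1e-05 each, the smallest the 100000 permutations can give, adjusted over 10 genes 1.43e-05), and r was 0.91 without the 2 libraries farthest from the median. Relative to the adipocyte marker mean of the same library, Pck1 was higher than in vehicle at BI456906 20 and 30 nmol/kg and at semaglutide 20 and 100 nmol/kg, by 0.60, 0.88, 0.58 and 0.67 on the log2 scale (exact permutation tests, 2-sided, adjusted p = 0.0289, 0.0130, 0.0472 and 0.0410 over 60 tests). At semaglutide 100 nmol/kg the marker mean itself was at -0.4996 against vehicle, and the fitted log2 fold change of Pck1 was 0.18 (FDR 0.816). The 10 genes all had positive r with the marker mean, from 0.59 for Dgat2 and 0.60 for Lpl to 0.97 for Lipe (adjusted permutation p of r at most 0.000460 for each). Both quantities come from the same libraries and share their TPM scale.

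**Figure D3:**
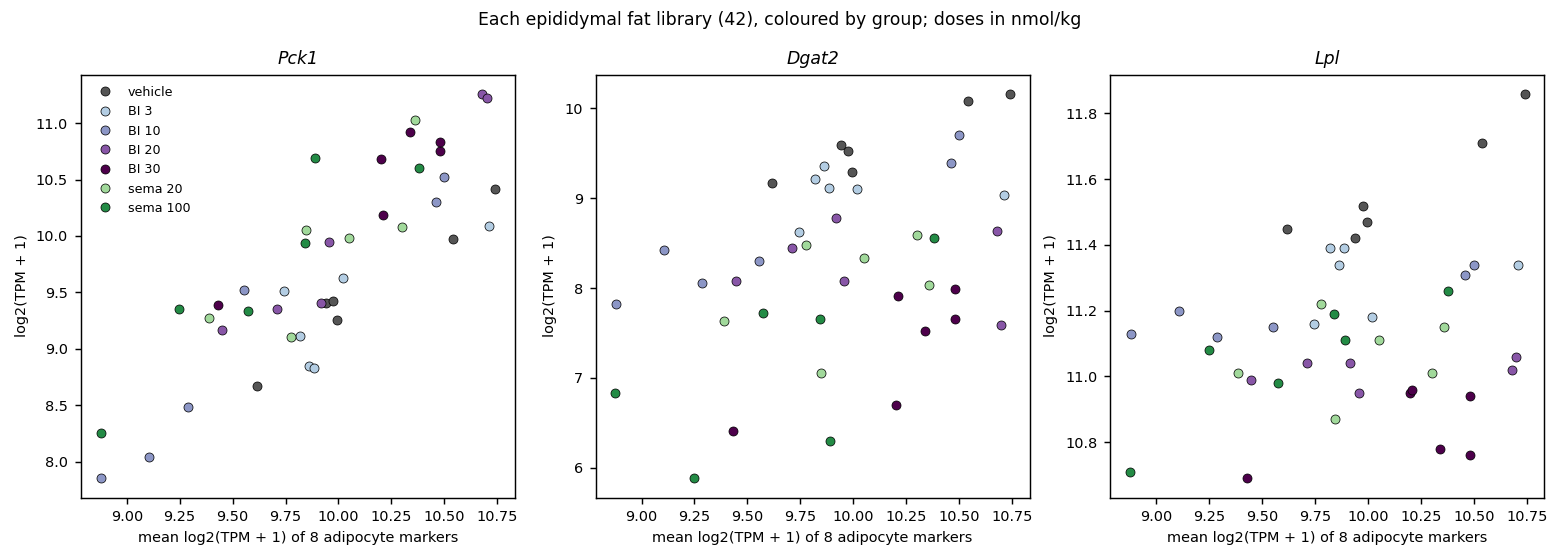
Log2(TPM + 1) of Pck1, Dgat2 and Lpl against the mean log2(TPM + 1) of 8 adipocyte markers in each of 42 eWAT libraries, coloured by group (BI, BI456906; sema, semaglutide; doses in nmol/kg). With group means removed, Pck1 followed the markers over the pooled libraries (Pearson r 0.93). The Dgat2 and Lpl values of BI456906 30 nmol/kg lay below those of vehicle at like marker levels.

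Pck1 and Abhd5 were the 2 genes that rose over BI456906 dose, and cAMP-responsive transcription is the textbook control of Pck1, so their upstream sequences are shown from RefSeq (GRCm38.p6). Each run covers bases 250 to 51 before the start of transcription on the plus strand, and capitals mark the 5 bases TGACG or their reverse complement CGTCA, the core of the cAMP response element.
Pck1, chr2:173152823-173153022: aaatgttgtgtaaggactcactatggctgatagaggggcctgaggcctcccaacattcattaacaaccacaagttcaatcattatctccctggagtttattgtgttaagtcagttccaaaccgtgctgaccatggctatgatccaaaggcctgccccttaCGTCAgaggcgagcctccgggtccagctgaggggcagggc
Abhd5, chr9:122351366-122351565: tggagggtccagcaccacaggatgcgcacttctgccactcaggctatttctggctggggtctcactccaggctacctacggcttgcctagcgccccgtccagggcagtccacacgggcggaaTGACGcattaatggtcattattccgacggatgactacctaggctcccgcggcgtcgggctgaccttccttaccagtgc

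The core began 90 bases before the start in Pck1 and 128 bases before it in Abhd5. It was present on either strand in 20.8% of 32851 promoter windows in the RefSeq table, each from 250 bases before to 50 after a start. Of the 10 genes, 5 (Pck1, Abhd5, Lipe, Mgll and Aqp7) had entries there, 8 windows in all. The whole element TGACGTCA (1.79% of windows; it holds the core), the direct repeat DR1 (0.0396%) and CCAAT (37.4%) had no match in the 8 windows, and the E-box CACGTG (7.15%) had 1 match each in windows of Lipe and Mgll. The core also matched in the other window of Mgll. A match is a description of letters and not a measured site. Sequence beyond these windows was not searched, and a part of cAMP in the slopes of Pck1 and Abhd5 was not tested.

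Among 8 other genes of glycerol and glycerol-3-phosphate supply, 3 rose and 2 fell at BI456906 30 nmol/kg (all genes: 10.9% and 13%), with a median log2 fold change of 0.21. Pck2, the mitochondrial counterpart of Pck1, rose by 0.63 ± 0.10 (FDR 2.27e-05), from a mean of 19.5 to 30.2 TPM with no overlap between the groups (all genes: 3.41% higher without overlap), and by 0.38 ± 0.10 at semaglutide 100 nmol/kg (FDR 0.00609). Pdk2, a kinase that blocks pyruvate dehydrogenase, rose by 1.19 ± 0.28 (FDR 0.00246), and its value at semaglutide 100 nmol/kg was 0.47 ± 0.27 (FDR 0.244). Gk, glycerol kinase, fell by 0.64 ± 0.20 at BI456906 30 nmol/kg (FDR 0.0207), from a mean of 7.25 to 4.49 TPM, and was at -0.20 ± 0.19 at semaglutide 100 nmol/kg (FDR 0.509).

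The last step of triglyceride synthesis is shared by 2 unrelated enzymes. Dgat1 (chromosome 15, 76502015 to 76511953, minus strand) is thought to act mainly on fatty acids that re-enter the cycle, and Dgat2 (chromosome 7, 99153658 to 99182719, minus strand) mainly on newly made ones. Dgat1 ranged from 95.2 to 183 TPM in vehicle, from 82.96 to 145 TPM at BI456906 30 nmol/kg and from 67.01 to 171 TPM at semaglutide 100 nmol/kg. It overlapped vehicle in each group, and its log2 fold change lay between -0.39 and -0.08 with none past the threshold (lowest FDR 0.379, at BI456906 10 nmol/kg). Dgat1 was lower relative to the adipocyte marker mean at BI456906 20 nmol/kg (a log2 difference of -0.20, exact permutation test, adjusted p = 0.0289).

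Dgat2 showed the largest changes of the 10 genes. Vehicle libraries ranged from 574 to 1147 TPM (median 751). BI456906 libraries ranged from 393 to 654 TPM at 3 nmol/kg (median 552), from 225 to 832 TPM at 10 nmol/kg (median 328), from 192 to 438 TPM at 20 nmol/kg (median 309) and from 83.9 to 254 TPM at 30 nmol/kg (median 191). Semaglutide libraries ranged from 132 to 384 TPM at 20 nmol/kg (median 292) and from 58.04 to 374 TPM at 100 nmol/kg (median 157). All 6 libraries of BI456906 20 and 30 nmol/kg and of both semaglutide doses lay below the lowest vehicle library, which held for 0.982%, 2.90%, 1.63% and 2.21% of all tested genes. At 10 nmol/kg replicates 13 and 15 stayed within the vehicle range and the other 4 lay below it.

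Against vehicle, Dgat2 fell by 1.41 ± 0.40 on the log2 scale at BI456906 20 nmol/kg (FDR 0.0344), by 2.30 ± 0.38 at 30 nmol/kg (FDR 5.74e-05), by 1.64 ± 0.39 at semaglutide 20 nmol/kg (FDR 0.00839) and by 2.48 ± 0.38 at 100 nmol/kg (FDR 3.71e-05). At BI456906 30 nmol/kg the fitted level was 0.203 of the vehicle level. The log2 fold changes at 3 and 10 nmol/kg were -0.57 ± 0.41 and -1.001 ± 0.40 (FDR 0.721 and 0.232), and the slope was -0.69 ± 0.11 per 10 nmol/kg (FDR 1.54e-05). Relative to the adipocyte marker mean, Dgat2 was lower at BI456906 10, 20 and 30 nmol/kg and at both semaglutide doses, with log2 differences from vehicle of -0.52, -1.303, -2.33, -1.43 and -1.98 (exact permutation tests, adjusted p = 0.0236, 0.0130, 0.0130, 0.0130 and 0.0130). The liver contribution to Dgat2, estimated as for Pck1, was up to 34.7 TPM in a vehicle library, and up to 4.51% of its value. The BI456906 20 nmol/kg call was lost on leaving out vehicle replicate 2, 3, 5 or 6 or BI456906 replicate 19, 23 or 24 (FDR up to 0.1002) or without the vehicle pair highest in liver markers, replicates 2 and 3 (FDR 0.0901). Without vehicle replicates 5 and 6 the calls at BI456906 20 and semaglutide 20 nmol/kg were lost (FDR 0.116 and 0.0686).

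Of 16 other esterification genes, 3 rose and 5 fell at BI456906 30 nmol/kg (all genes: 10.9% and 13%), and 1 rose and 4 fell at semaglutide 100 nmol/kg (all genes: 5.48% and 9.42%), with median log2 fold changes of -0.03 and -0.17. Agpat2, which adds the second fatty acid, fell by 0.82 ± 0.19 (FDR 0.00173) and 1.05 ± 0.19 (FDR 0.000208) at these doses, from a mean of 151 TPM to 86.6 and 75.6 TPM. Mogat2, a monoacylglycerol acyltransferase, fell from a mean of 5.96 TPM to 0.717 and 0.858 TPM (FDR 1.98e-05 and 2.97e-05). Lpin3, a phosphatidate phosphatase, rose by 1.03 ± 0.20 (FDR 0.000300) and 0.77 ± 0.20 (FDR 0.00820). Gpam, the mitochondrial enzyme of the first step, did not pass (0.22 ± 0.30 and -0.15 ± 0.29, FDR 0.630 and 0.773). Of 14 genes of de novo lipogenesis and its regulators, 5 fell at BI456906 30 nmol/kg (all genes: 13%) and 6 at semaglutide 100 nmol/kg (all genes: 9.42%), and none rose by limma/voom. Among them, Fasn, fatty acid synthase, fell by 1.06 ± 0.35 and 1.61 ± 0.34 (FDR 0.0230 and 0.00134), Elovl6, a fatty acid elongase, by 1.29 ± 0.21 and 1.23 ± 0.21 (FDR 5.49e-05 and 0.000137), and Scd2, a stearoyl-CoA desaturase, by 2.01 ± 0.26 and 1.57 ± 0.26 (FDR 2.13e-06 and 9.84e-05). Pparg, the master regulator of fat cells and 1 of the adipocyte markers, did not pass (0.32 ± 0.19 and 0.02 ± 0.19, FDR 0.222 and 0.953).

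Lpl encodes lipoprotein lipase (chromosome 8, 68880491 to 68907448, plus strand). It had the tightest replicates of the 10 genes and was the 1 gene whose 6 values lay below all 6 vehicle values at every dose of both compounds, which held singly for 0.173% (3 nmol/kg), 0.210% (10 nmol/kg), 0.982% (20 nmol/kg) and 2.90% (30 nmol/kg) of all tested genes under BI456906 and for 1.63% and 2.21% under semaglutide 20 and 100 nmol/kg. Vehicle libraries ranged from 2740 to 3708 TPM (median 2888), and the medians over rising BI456906 doses were 2588, 2313, 2087 and 1860 TPM. The highest BI456906 30 nmol/kg library was at 1990 TPM, and semaglutide libraries ranged from 1873 to 2386 TPM at 20 nmol/kg and from 1679 to 2449 TPM at 100 nmol/kg. Group medians thus stepped down with each BI456906 dose, with neighbouring doses overlapping except 10 and 20 nmol/kg.

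The log2 fold change of Lpl was -0.30 ± 0.09 at BI456906 3 nmol/kg (FDR 0.289, not past the threshold), and Lpl fell by 0.35 ± 0.09 at 10 nmol/kg (FDR 0.0443), by 0.60 ± 0.09 at 20 nmol/kg (FDR 9.28e-05) and by 0.70 ± 0.08 at 30 nmol/kg (FDR 1.10e-06). Under semaglutide its log2 fold change was -0.52 ± 0.09 at 20 nmol/kg (FDR 0.000310) and -0.48 ± 0.09 at 100 nmol/kg (FDR 0.000216). Its slope over BI456906 dose was -0.21 ± 0.02 per 10 nmol/kg (FDR 3.06e-07). The 10 nmol/kg call was lost on leaving out vehicle replicate 2, 3, 5 or 6 or BI456906 replicate 14, 16, 17 or 18 (FDR up to 0.231), and without the pair of vehicle libraries highest in liver or in adipocyte markers (FDR 0.0514 and 0.396). Relative to the adipocyte marker mean, Lpl was lower at BI456906 30 nmol/kg (a log2 difference of -0.78, exact permutation test, adjusted p = 0.0260) and did not pass at the other doses, with 0.14 above vehicle at BI456906 10 nmol/kg (adjusted p = 0.714). At semaglutide 20 and 100 nmol/kg this difference was -0.33 and -0.02 (adjusted p = 0.2095 and 0.951).

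Of 12 other genes of the lipase system and fatty acid uptake, 1 rose and 3 fell at BI456906 30 nmol/kg (all genes: 10.9% and 13%). Gpihbp1, which carries the lipase to the capillary lumen, was at 188 to 335 TPM in vehicle and 196 to 419 TPM at BI456906 30 nmol/kg (0.53 ± 0.28, FDR 0.174), and Cd36, the fatty acid transporter, was at 0.14 ± 0.11 (FDR 0.393). Angptl4, an inhibitor of the lipase in fasted fat, fell by 0.48 ± 0.14 at semaglutide 100 nmol/kg (FDR 0.0165) and was at -0.27 ± 0.14 at BI456906 30 nmol/kg (FDR 0.162). Sel1l, an endoplasmic reticulum protein needed for lipase maturation, fell by 0.40 ± 0.08 at BI456906 30 nmol/kg (FDR 0.000549).

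Slc2a4 encodes GLUT4 (chromosome 11, 69942539 to 69948188, minus strand). It ranged from 42.1 to 95.7 TPM in vehicle (median 56.01), from 30.7 to 72.5 TPM at BI456906 30 nmol/kg (median 65.2) and from 20.2 to 60.2 TPM at semaglutide 100 nmol/kg (median 34.95). At semaglutide 100 nmol/kg 5 of 6 libraries lay below the lowest vehicle library, and at BI456906 30 nmol/kg 1 did. Slc2a4 fell by 0.81 ± 0.24 at semaglutide 100 nmol/kg (FDR 0.0220), and its log2 fold change was -0.48 ± 0.25 at semaglutide 20 nmol/kg (FDR 0.248) and -0.10 ± 0.25 at BI456906 30 nmol/kg (FDR 0.795). The semaglutide 100 nmol/kg call was lost on leaving out vehicle replicate 5 or 6 or semaglutide replicate 40 or 41 (FDR up to 0.0777), and without both vehicle replicates 5 and 6 (FDR 0.231). Relative to the adipocyte marker mean, Slc2a4 was lower at semaglutide 20 and 100 nmol/kg (log2 differences of -0.29 and -0.33, exact permutation tests, adjusted p = 0.0130 each) and higher at BI456906 10 nmol/kg (0.11, adjusted p = 0.0260). Of 12 other genes of insulin-regulated glucose uptake, 3 rose and 1 fell at BI456906 30 nmol/kg (all genes: 10.9% and 13%): Slc2a3, which encodes the glucose transporter GLUT3, rose by 1.59 ± 0.27 (FDR 6.93e-05), and Lnpep, a resident of GLUT4 vesicles, fell by 0.30 ± 0.09 (FDR 0.0109). Insr, the insulin receptor, and Tbc1d4, which retains GLUT4 inside the cell, did not pass (0.23 ± 0.17 and -0.14 ± 0.12, FDR 0.338 and 0.414).

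The compounds were compared with each other in the same fit. At the same nominal dose of 20 nmol/kg, none of the 10 genes differed between BI456906 and semaglutide by limma/voom, edgeR or DESeq2, and none had an unadjusted p of at most 0.05. The plasma levels of the compounds that the paper reports differed at this dose, so exposure was not matched. The 95% confidence interval of the difference, BI456906 minus semaglutide, was -0.49 to 0.95 on the log2 scale for Dgat2, -0.25 to 0.09 for Lpl, -0.20 to 0.52 for Gpd1 and -0.81 to 1.04 for Pck1. The intervals of Pck1 and Dgat2 were thus wide and that of Lpl narrow. Of all tested genes, 0% passed by limma/voom and by edgeR, and DESeq2 called 4 genes.

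The highest doses were 30 nmol/kg for BI456906 and 100 nmol/kg for semaglutide, which are not matched. None of the 10 genes passed between them by limma/voom, edgeR or DESeq2, and 3 had an unadjusted p of at most 0.05. Of all tested genes 0.0108% passed by limma/voom, 1.63% by edgeR and 5.23% by DESeq2. The 3 genes were Slc2a4 (0.71 ± 0.24, FDR 0.103), Abhd5 (0.46 ± 0.17, FDR 0.124) and Lpl (-0.21 ± 0.08, FDR 0.127), each given as BI456906 minus semaglutide. Leaving out BI456906 replicate 29 brought Slc2a4 and Abhd5 past the threshold, leaving out semaglutide replicate 38 brought Slc2a4 past it, and leaving out semaglutide replicate 39 brought Abhd5 past it. With sample quality weights 4 of the 10 passed, beside 36.5% of all genes. For Pck1 the difference was 0.74 ± 0.46 (FDR 0.302, 95% confidence interval -0.19 to 1.68). None of the 10 passed between BI456906 30 and semaglutide 20 nmol/kg or between the 2 semaglutide doses by limma/voom, and 2 had an unadjusted p of at most 0.05 in each. The other tools were not run for these last comparisons.

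In liver the same genes were read from their own table and compared with liver vehicle. At BI456906 30 nmol/kg 9 of the 10 passed, 2 higher and 7 lower (all genes: 58.8%, with 28.9% higher and 29.9% lower), and at semaglutide 100 nmol/kg 7 passed, 1 higher and 6 lower (all genes: 48.2%, with 24% higher and 24.1% lower). Pck1 rose, from 632 to 1783 TPM in vehicle to 2485 to 3322 TPM at BI456906 30 nmol/kg without overlap and to 1583 to 2988 TPM at semaglutide 100 nmol/kg with overlap (log2 fold changes 1.52 ± 0.17 and 1.11 ± 0.17, FDR 1.04e-09 and 1.30e-06). At BI456906 30 nmol/kg 18.6% of all genes tested in liver lay above vehicle without overlap. The paper reports no significant change for genes of gluconeogenic enzymes, with phosphoenolpyruvate carboxykinase as its example, which differs from the Pck1 values here. It does not state which comparison this rests on, and the reason for the difference was not tested. Dgat2 ranged from 395 to 480 TPM in vehicle and from 324 to 492 TPM at BI456906 30 nmol/kg and fell by 0.27 ± 0.10 (FDR 0.0183), a call lost without vehicle replicate 48 or BI456906 replicate 71 (FDR 0.0782 and 0.0877). Abhd5 fell by 0.23 ± 0.06 (FDR 0.000939), the direction opposite to eWAT.

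Lpl, Lipe, Aqp7 and Slc2a4 were at low levels in liver, and the sum of the adipocyte marker list was lower there too in treated groups. The adipocyte marker sum in liver was 68.8 to 254 TPM in vehicle and 22.6 to 133 TPM at BI456906 30 nmol/kg (exact permutation test, adjusted p = 0.0234). Adipoq, at the vehicle liver level given above, was a small part of this sum, and most of it came from other genes of the list. What share fat cells had in the sum or in the levels of Lpl, Lipe, Aqp7 and Slc2a4 was not tested. Lpl ranged from 3.23 to 12.3 TPM in vehicle and from 1.83 to 3.57 TPM at BI456906 30 nmol/kg (-1.73 ± 0.30, FDR 5.33e-06), with overlap, and Lipe from 11.8 to 15.7 TPM and from 9.20 to 10.6 TPM, without overlap (-0.53 ± 0.07, FDR 1.16e-08). At that dose 10.8% of all genes tested in liver lay below vehicle without overlap. Aqp7 was on 7 to 165 reads per vehicle library and on 0 to 3 reads per library at BI456906 30 nmol/kg, too few there for a fold to be read. Slc2a4 was on 5 to 26 reads per library at BI456906 30 nmol/kg, beside 16 to 34 in vehicle.

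Whether a change differed in size between fat and liver was asked with an interaction term, each treated group against vehicle of its own tissue. At BI456906 30 nmol/kg 5 of the 10 genes differed (all 15297 genes tested in both: 45.9%), and at semaglutide 100 nmol/kg 4 did (all genes: 33.9%). The log2 fold change of Dgat2 was lower in eWAT than in liver under both, with eWAT minus liver differences of -1.92 ± 0.39 (FDR 3.89e-05) and -2.24 ± 0.39 (FDR 6.94e-06). In liver Dgat2 did not pass at semaglutide 100 nmol/kg (-0.19 ± 0.10, FDR 0.117). For Abhd5 the difference was 0.91 ± 0.19 at BI456906 30 nmol/kg (FDR 4.37e-05). Lipe, Lpl and Aqp7 also differed at that dose, and Gpd1, Mgll and Aqp7 at semaglutide 100 nmol/kg. For Pck1 the differences were -0.49 ± 0.51 and -0.87 ± 0.50, with 95% confidence intervals of -1.499 to 0.52 and -1.86 to 0.11 (FDR 0.454 and 0.169), so a difference between the tissues was not shown.

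**Figure D4:**
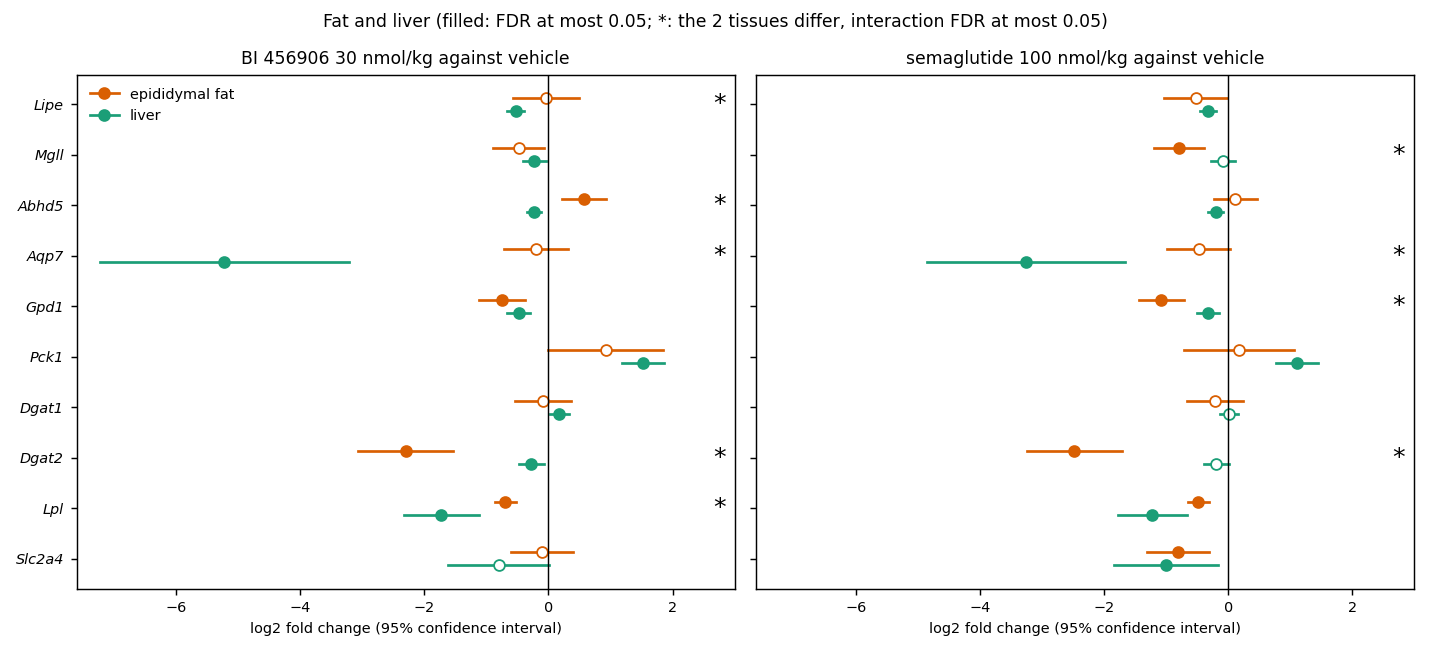
Log2 fold change against vehicle with its 95% confidence interval for the 10 genes in eWAT and liver, at BI456906 30 nmol/kg (left) and semaglutide 100 nmol/kg (right); filled points have an FDR of at most 0.05 in their tissue and asterisks mark genes whose changes differ between tissues. Dgat2 was at -2.30 in eWAT and -0.27 in liver at BI456906 30 nmol/kg, and the liver Aqp7 value rests on 0 to 3 reads per BI456906 library.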

How the data were processed

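eWAT and liver RNA was sequenced in 7 groups of 6 libraries per tissue, grouped by the sample titles. The authors deposited, for each tissue, a table of gene read counts divided by 1 factor per library (a scaled signal) and a table of TPM, with STAR 2.5.2b, RSEM 1.3.0 and featureCounts 1.5.1 and the builds mm10 and GRCm38 named in the submitters' processing notes. In the deposited signal every nonzero value was a whole multiple of 1 step per library (tolerance 0.001), so whole reads could be recovered. The labels describe a SMART-Seq v4 kit with single reads, whereas the methods describe strand-specific paired reads for liver, and which holds for eWAT is not given in the sources used here. If strand was not kept, overlapping antisense reads cannot be told apart.

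Identifiers were paired with symbols through GENCODE M21. The main test was limma/voom (limma 3.58.1, edgeR 4.0.16, R 4.3.3) on the deposited signal, with TMM factors, genes kept by filterByExpr, 1 fit per tissue over 42 libraries, and Benjamini-Hochberg adjustment over all genes tested. Slopes are linear contrasts over vehicle, 3, 10, 20 and 30 nmol/kg, per 10 nmol/kg. Tissue differences were interaction terms over 84 libraries, each change taken within its own tissue. Single values were compared by exact permutation tests over 924 arrangements of 6 against 6 libraries (smallest 2-sided p = 0.00216). Levels and ranges are in the deposited TPM. The scripts were tested on simulated data. edgeR's quasi-likelihood test and DESeq2 1.42.0 on recovered reads, other scalings, filters and pseudocounts and left-out libraries were alternatives.

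The 10 genes and all lists were chosen with earlier results of these data known. Named besides them were 15 set genes of the pathway, the 2 genes of each list with the lowest FDR at BI456906 30 nmol/kg, and the 2 genes most alike to each of the 10. The list counts cover every gene tested, and 2 genes that this rule would name are not reported here. Depth was 37573004 to 53996914 reads in eWAT, and each of the 10 genes had at least 1292 reads in every eWAT library. In liver, Aqp7 and Slc2a4 were near the limit of counting.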

Additional observations from a re-analysis of the deposited data

Results flagged for a closer look

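Some values stood apart within their group of 6, by a gap to the nearest other library of over 0.625 of the group's range (Dixon's test; chance flags about 1 in 20 of the 140 groups, and 9 were found). In eWAT, Lipe was at 393 TPM in BI456906 30 nmol/kg replicate 29 (the other 5 at 697 to 858), and Pck1 at 2085 TPM in semaglutide 20 nmol/kg replicate 31 (the others at 549 to 1082). Abhd5 was at 109 TPM in BI456906 3 nmol/kg replicate 9 (the others at 72.3 to 83.03) and at 175 TPM in BI456906 20 nmol/kg replicate 23 (the others at 75.2 to 106). In liver, Mgll was at 235 TPM in BI456906 3 nmol/kg replicate 51, Dgat1 at 29.9 TPM in semaglutide 100 nmol/kg replicate 81, Lpl at 12.4 TPM in BI456906 3 nmol/kg replicate 49 and at 3.57 TPM in BI456906 30 nmol/kg replicate 71, and Slc2a4 at 0.58 TPM in semaglutide 20 nmol/kg replicate 76.

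The change against vehicle differed between eWAT and liver, tested as an interaction in limma/voom, for 5 genes at BI456906 30 nmol/kg (all 15297 genes tested in both: 45.9%). The eWAT minus liver difference in log2 fold change was 0.60 for Lipe (FDR 0.0464), 1.14 for Lpl (FDR 0.00506), 5.13 for Aqp7 (FDR 2.31e-05), -1.92 for Dgat2 (FDR 3.89e-05) and 0.91 for Abhd5 (FDR 4.37e-05). At semaglutide 100 nmol/kg, where 33.9% of all genes differed, it was -0.70 for Gpd1 (FDR 0.00611), 2.83 for Aqp7 (FDR 0.0160), -2.24 for Dgat2 (FDR 6.94e-06) and -0.66 for Mgll (FDR 0.0150). The fitted Aqp7 differences depend on the prior count, since liver Aqp7 was on 0 to 3 and 2 to 7 reads per treated library, and are no bound.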

How the results depend on the processing

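No paired analysis was possible because the library numbers in the labels differ between all groups and tissues. Leaving out 11 eWAT libraries high in liver markers kept 1 vehicle library, which has no spread of its own. That setting cannot show whether the calls hold, so its counts are not given. Without the 2 vehicle libraries highest in liver markers, 0 genes passed at BI456906 10 and 1 at 20 nmol/kg (all genes: 0.371% and 2.03%). Without the 2 highest in adipocyte markers 0, 1, 1 and 3 passed at BI456906 10 and 20 and semaglutide 20 and 100 nmol/kg. Both settings were added after seeing the data. For the second, the share of all genes is not given here, so fewer calls among the 10 cannot be told from fewer calls over all genes. At BI456906 10 nmol/kg RLE factors, edgeR, log2(TPM + 0.1) and fitting only the groups compared gave 0 (all genes: 0.448%, 0.183%, 0.17% and 0%). Quality weights gave 5 there, beside 14.2% of all genes with those weights. DESeq2 gave 1 gene at BI456906 3 nmol/kg (all genes: 0.734%), and quality weights 4 between BI456906 30 and semaglutide 100 nmol/kg (all genes: 36.5%). Fitting only the groups compared gave 3 at semaglutide 100 nmol/kg in eWAT (all genes: 6.05%) and 5 at BI456906 30 nmol/kg in liver. The share of all genes is not given here for this liver count or for the next counts, so they are no result about the 10 alone. Leaving out 1 library gave 0 to 0, 0 to 1, 1 to 2 and 4 to 4 genes over the rising BI456906 doses, 2 to 3 and 4 to 5 at semaglutide 20 and 100 nmol/kg, 0 to 0 and 0 to 2 between compounds at 20 nmol/kg and at the highest doses, 4 to 5 for the slope, and 7 to 9 and 6 to 8 in liver. Relative to the adipocyte markers, 7 values changed sign at BI456906 10 nmol/kg: Lpl to 0.14 and Slc2a4 to 0.11, each past the threshold on 1 of the scales, and 5 others with neither value past it. Among single genes, 66 of the alternative values lost and 27 gained a call outside of leaving out 1 library, and 1595 stayed on their side of the threshold, most often with no call in either. Over all alternatives, leaving out 1 library included, 134 values differed in sign with neither past the threshold. The Lipe tissue difference lost its call with RLE factors and without the filter on low values. The cause of these changes was not tested.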

Other observations

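Over the 42 eWAT libraries, group differences included, the genes among the 10 that moved most alike were Lipe and Aqp7 (Pearson r of the voom log2 values 0.96), Lipe and Slc2a4 (0.93) and Gpd1 and Dgat2 (0.91), and the least alike were Abhd5 and Dgat2 (-0.29). Among all other tested genes, those most like Dgat2 were Mmd (r = 0.97) and Paqr9 (0.96), those most like Gpd1 were Adora1 (0.95), the inhibitory adenosine receptor of fat cells, and Me1 (0.94), malic enzyme, and those most like Pck1 were Ces1d (0.97), a lipase of fat cells, and Adhfe1 (0.96). Lipe moved most with Plin4 (0.99), a droplet coat protein, and Pex19 (0.98), Mgll with Ehd2 and Cav1 (0.97 each), both proteins of caveolae, Aqp7 with Ushbp1 and Lgals12 (0.96 each), and Slc2a4 with Slc1a5 and Sncg (0.97 each). Abhd5 moved most with C330007P06Rik (0.93) and Lrrc58 (0.92), Dgat1 with Cluh and Nos3 (0.91 each), and Lpl with Nsdhl (0.84) and Trp53inp2 (0.82), the lowest values of the 10. These r are descriptions over libraries that share groups and a spread in adipocyte markers.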
